A study of Mus musculus with 22 samples.

Results

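Metallothioneins and other genes known to be induced by glucocorticoid hormones were followed in mouse liver after removal of the pituitary and after growth hormone (GH). The list held 8 genes: Mt1, Mt2, Fkbp5, Tsc22d3, Sgk1, Zbtb16, Lcn2 and Cdkn1a. Probes were assigned by the RefSeq accession or the gene name that the array files give for them, which found 7 of the 8. Zbtb16 was matched by no probe and is not analysed here. All 7 were among the 26191 gene names that passed the filter on dim probes, out of 33767 named on the array.

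Liver RNA came from ICR mice aged 8 weeks and was pooled, with 2 to 5 mice in a pool. Sham-operated males (M-Sham) and females (F-Sham) had received vehicle, and hypophysectomised males (M-Hypox) and females (F-Hypox) had lost the pituitary as adults, so that every GH-treated group also lacked it. The treated groups had 1 GH injection 30 min before killing, GH (30), or 90 min before, GH (90), or 2 injections given 4 h apart with killing 30 min after the last, 2 GH. Each of 11 comparisons was made on 2 arrays with the dyes exchanged, 22 arrays in all, each array pairing a pool of the first-named group with one of the second. The labels do not say whether a pool was used in several comparisons, but pool sizes go with the replicate number for some groups: M-Hypox + GH (30) had 4 mice in replicate 1 and 3 in replicate 2 of both its comparisons. Arrays of different comparisons may therefore not be independent. Hypophysectomy removes every pituitary hormone at once, and pools hide the spread between mice, so the p-values below describe the spread between pools and arrays only.

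Glucocorticoids, chiefly corticosterone in the mouse, are released by the adrenal under the pituitary hormone ACTH and act through the glucocorticoid receptor, a transcription factor that binds paired copies of a short DNA element. In liver the receptor switches on genes of fuel metabolism, brakes on inflammation and parts of its own feedback. Metallothioneins are small cysteine-rich proteins that bind zinc and copper, and their genes respond to metals through the factor MTF1 as well as to glucocorticoids and inflammatory cytokines. GH signals in liver mainly through the factor STAT5.

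The metallothionein pair is shown first because both genes lie close together on chromosome 8 and moved together below. The 250 bases before each annotated start were read from RefSeq (GRCm38.p6, plus strand, at chr8:94172368-94172617 for Mt2 and chr8:94178839-94179088 for Mt1). Capitals mark matches to the core of the metal response element, TGCACNC or TGCGCNC, on either strand.
Mt2: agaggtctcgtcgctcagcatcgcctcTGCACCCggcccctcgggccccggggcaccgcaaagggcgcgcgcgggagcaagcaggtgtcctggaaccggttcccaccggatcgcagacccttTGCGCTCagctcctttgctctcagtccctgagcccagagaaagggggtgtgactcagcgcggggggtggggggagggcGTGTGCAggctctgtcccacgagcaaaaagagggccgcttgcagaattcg
Mt1: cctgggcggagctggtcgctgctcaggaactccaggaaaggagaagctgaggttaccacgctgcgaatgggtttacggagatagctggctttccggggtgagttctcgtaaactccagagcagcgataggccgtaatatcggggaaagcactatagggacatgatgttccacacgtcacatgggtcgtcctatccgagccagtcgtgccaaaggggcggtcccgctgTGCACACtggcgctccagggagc
The Mt2 window held 3 matches and the Mt1 window held 1, at 23 to 17 bases before the annotated start. Both counts depend on where that start is annotated. Bases after it or further before it were not read, so the counts do not compare whole promoters. Across 32817 windows of the same length, 10.4% held TGCACNC and 12.5% held TGCGCNC.

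Sgk1 is shown because it has the clearest textbook element of the set. Its window at chr10:21993640-21993889 (GRCm38.p6, plus strand) held the glucocorticoid half-site AGAACA, in capitals on either strand, 3 times.
Sgk1: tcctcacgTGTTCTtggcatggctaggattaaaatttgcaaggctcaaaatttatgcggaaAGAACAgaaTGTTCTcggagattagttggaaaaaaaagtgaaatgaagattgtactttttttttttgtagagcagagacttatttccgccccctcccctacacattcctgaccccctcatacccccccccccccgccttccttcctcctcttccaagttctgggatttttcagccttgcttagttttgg
A pair of these lay head to head as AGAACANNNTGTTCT, an arrangement found in 3 of the 32817 windows (0.00914%), while the half-site alone was in 16.1%. The 7 genes had 15 such windows between them, and the inverted repeat was in 1 of them. TTCNNNGAA, the form bound by STAT factors, was in 1 window of Tsc22d3, 1 of Sgk1 and 7.01% of all windows. A match is a run of letters, and the absence of one says only that these letters were not in that window.

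Every probe used was well above background in all 44 channels and saturated in none. Mt1 and Cdkn1a had 1 probe printed in 10 spots. The SD between spots of an array was 0.02 to 0.06 for Mt1 and 0.02 to 0.05 for Cdkn1a on the log2 scale. It describes repeated spots of 1 probe and not the spread between pools or arrays. Fkbp5 had 3 probes and Tsc22d3 had 2. The brightest was used, and the others are given for only some of the results below. The sequences of Mt1 and Mt2 mRNA are close to each other, so signal could pass between their probes. The pair is therefore best read as 1 observation rather than 2. The counts of genes and of calls below still enter Mt1 and Mt2 separately. A count that holds both may overstate the number of independent genes set against its background. Y-linked Ddx3y lay at log2 levels of 13.22 to 13.74 in the 22 channels labelled male and 5.94 to 8.74 in the 22 labelled female, with no overlap between the labelled sexes. Across all genes the log2 ratios of the paired arrays correlated from 0.00678 for M-Hypox + GH (30) over F-Hypox + GH (30) to 0.84 for M-Hypox over M-Sham.

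A gene was called higher or lower when limma's moderated test gave an adjusted p (Benjamini-Hochberg over all genes tested) under 0.05 and both arrays went the same way. All ratios are log2, first-named group over second. The background is the percentage of all tested genes called in the same direction of the same comparison. It is no background for the counts of members at an unadjusted p under 0.05. The share of all genes at that threshold was not counted. The members had 22 calls over the 11 comparisons and 8 differences between them. Scaling the arrays to a common spread ended 18 of the 22 and fitting only the arrays compared ended 8, while neither reversed a called value. The calls of Mt1 in M-Sham over F-Sham and in M-Hypox over M-Sham held under every alternative run.

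**Figure D1:**
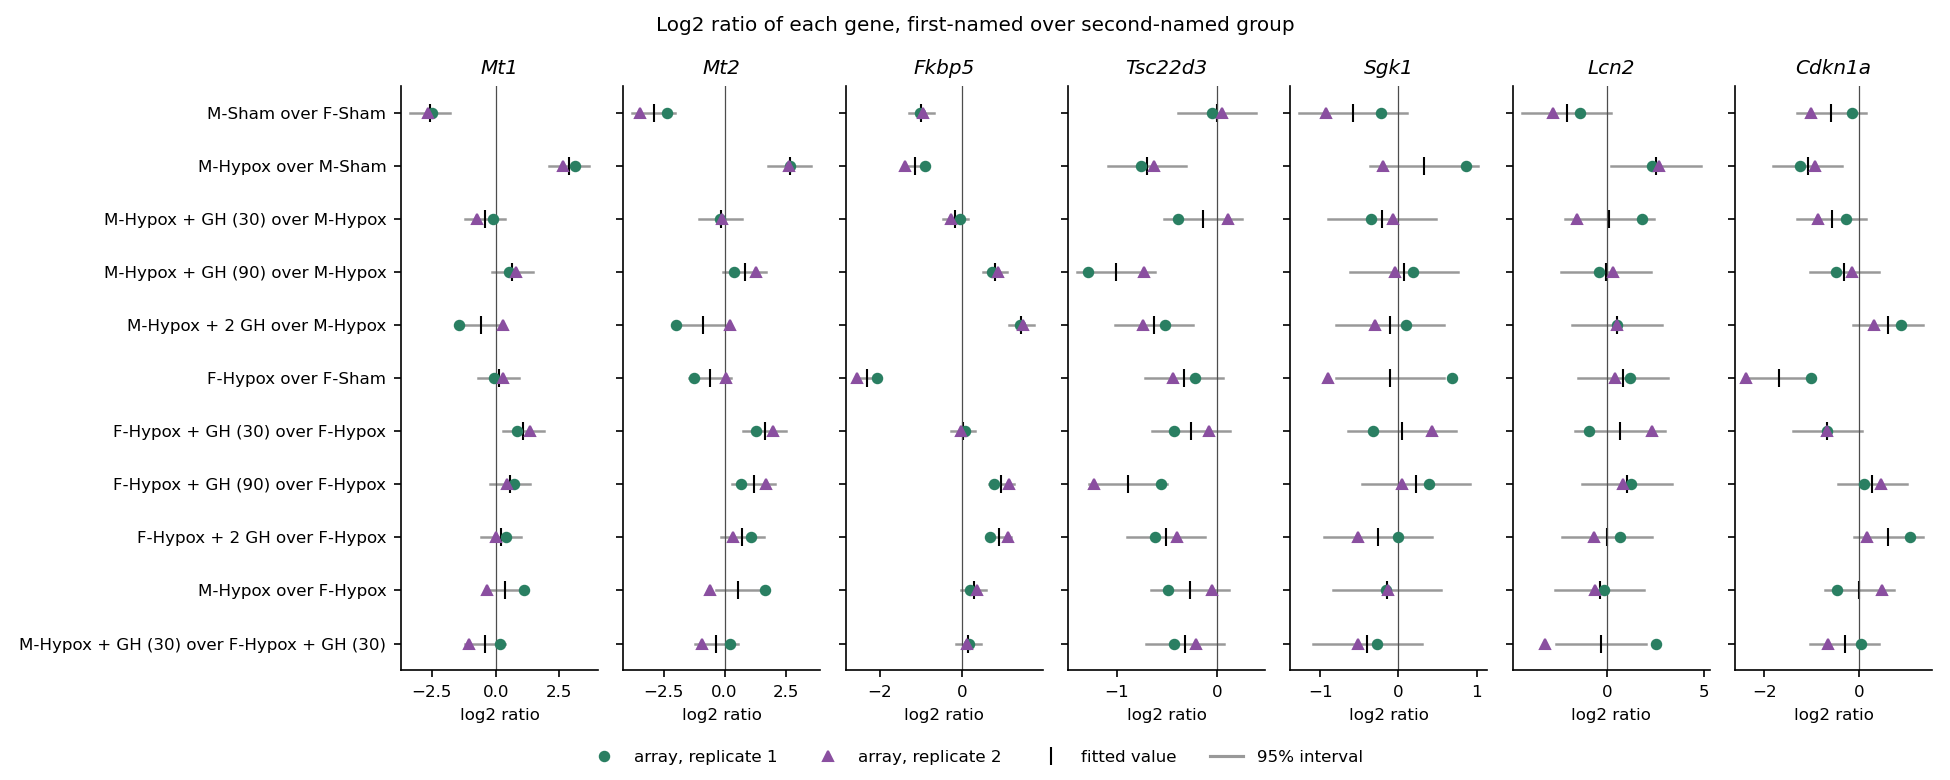
Log2 ratio (horizontal axis) of each gene in the 11 comparisons (rows); circles and triangles are the arrays of replicates 1 and 2, the bar is the fitted value and the grey line its 95% interval. Mt1 and Mt2 stand far from 0 in the comparisons with M-Sham, Fkbp5 has closely paired arrays throughout, and the Lcn2 arrays fall on opposite sides of 0 at 30 min.

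In sham-operated mice the metallothioneins and Fkbp5 were lower in male than in female liver. Mt1 read -2.51 and -2.63 on the arrays, and Mt2 read -2.34 and -3.46. Both genes were thus several-fold lower in males on each array. The fitted value of Mt1 was -2.57 (SE 0.36, 5.94-fold lower, limma adjusted p = 0.00055), and that of Mt2 was -2.90 (SE 0.40, 7.47-fold lower, adjusted p = 0.00049). Fkbp5, a co-chaperone of the glucocorticoid receptor that holds it in a low-affinity state, read -1.04 and -0.94, with a fitted value of -0.99 (SE 0.14, 1.99-fold lower, adjusted p = 0.00053). Its other probes gave -0.71 and -0.24, the dimmest one showing the smallest difference.

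Of the 7 genes, 3 were called lower and none higher, where 3.74% of all genes were called lower and 5.03% higher. The 3 included both Mt1 and Mt2, which may not be independent. The median over the 7 was -0.99, and -0.0055 over all genes tested. Lcn2, the iron-siderophore binder lipocalin-2, read -1.41 and -2.78, low on each array yet not called (adjusted p = 0.29). Cdkn1a, the cell cycle inhibitor p21, read -0.16 and -1.02, and Sgk1, a kinase that regulates ion channels and transporters, read -0.22 and -0.93; neither passed the test. Tsc22d3, which encodes the anti-inflammatory protein GILZ, was at -0.05 and 0.05, with a 95% interval of the fitted difference from -0.39 to 0.39.

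After hypophysectomy the metallothioneins rose in males and were not called in females, and the difference between the sexes itself passed the test. M-Hypox over M-Sham gave Mt1 ratios of 3.09 and 2.64 and Mt2 ratios of 2.69 and 2.66. The fitted rise was 2.87 for Mt1 (SE 0.36, 7.29-fold, limma adjusted p = 5.7e-05) and 2.67 for Mt2 (SE 0.40, 6.38-fold, adjusted p = 0.00023). F-Hypox over F-Sham gave Mt1 ratios of -0.06 and 0.28 and Mt2 ratios of -1.26 and 0.07, on both sides of 0. The fitted female values, 0.11 (adjusted p = 0.86) for Mt1 and -0.60 (adjusted p = 0.30) for Mt2, had 95% intervals of -0.68 to 0.90 and -1.47 to 0.28. The male minus female difference was 2.75 for Mt1 (SE 0.51, adjusted p = 0.0075) and 3.27 for Mt2 (SE 0.57, adjusted p = 0.0051).

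Fkbp5 fell in both sexes. The male arrays read -0.90 and -1.39, and the female arrays read -2.07 and -2.56, so that every female array lay below every male one. The fitted values were -1.15 in males (SE 0.14, 2.21-fold lower, adjusted p = 4e-05) and -2.32 in females (SE 0.14, 4.98-fold lower, adjusted p = 2.6e-07). The fall was smaller in males by 1.17 (SE 0.20, adjusted p = 0.004). The other probes of Fkbp5 fell by 0.75 and 1.53 in males and by 1.71 and 2.12 in females.

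Cdkn1a also fell in both sexes, with arrays at -1.25 and -0.93 in males and -1.01 and -2.38 in females. Its fitted values were -1.09 (SE 0.34, 2.13-fold lower, adjusted p = 0.022) and -1.69 (SE 0.34, 3.24-fold lower, adjusted p = 0.0021), and the difference between the sexes, 0.60 with a 95% interval of -0.42 to 1.63, was not called. Tsc22d3 fell in males, with arrays at -0.76 and -0.63 and a fitted value of -0.69 (SE 0.18, 1.62-fold lower, adjusted p = 0.0083). Females read -0.23 and -0.44 (adjusted p = 0.19), and the sexes could not be separated (difference -0.36, 95% interval -0.91 to 0.18). Lcn2 was at 2.33 and 2.70 in males and 1.201 and 0.41 in females, above 0 on all 4 arrays. Its error was wide (SE 1.07), and neither sex was called (adjusted p = 0.084 and 0.63). Sgk1, whose printed window holds the glucocorticoid repeat, read 0.86 and -0.19 in males and 0.69 and -0.90 in females, with no common direction. In males the calls of Tsc22d3 and Cdkn1a were lost without replicate 1 (adjusted p = 0.14 and 0.29) and without replicate 2 (adjusted p = 0.057 and 0.067), and in females that of Cdkn1a was lost without replicate 2 (-1.03, adjusted p = 0.14).

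In males 2 of the 7 genes were called higher and 3 lower after hypophysectomy, against a background of 18.8% higher and 18.6% lower. In females none was higher and 2 were lower, against 14.6% higher and 16.5% lower. The difference between the sexes was called for 3 of 7, all with the larger value in males, where 6.74% of all genes were called in either direction. Mt1 and Mt2 were among the 3, and were also the 2 called higher in males. Each of these counts may therefore hold fewer independent genes. Without replicate 1 of M-Hypox over M-Sham none of these differences was called, and the adjusted p was 0.092 for Mt1, 0.071 for Mt2 and 0.061 for Fkbp5, with differences of 2.31, 2.75 and 0.93. Without replicate 2 of F-Hypox over F-Sham only the one of Mt2 was called (adjusted p = 0.055 for Mt1 and 0.054 for Fkbp5). With the arrays scaled to a common spread none was called (adjusted p = 0.26 for Mt1, and 1 for Mt2 and Fkbp5), and with only the arrays compared in the fit that of Mt1 alone was (adjusted p = 0.065 for Mt2 and 0.14 for Fkbp5). The comparison of the sham groups and that of M-Hypox with M-Sham share M-Sham as a group, with pools of 4 and 3 mice in each, so a low metallothionein level in those pools enters both.

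**Figure D2:**
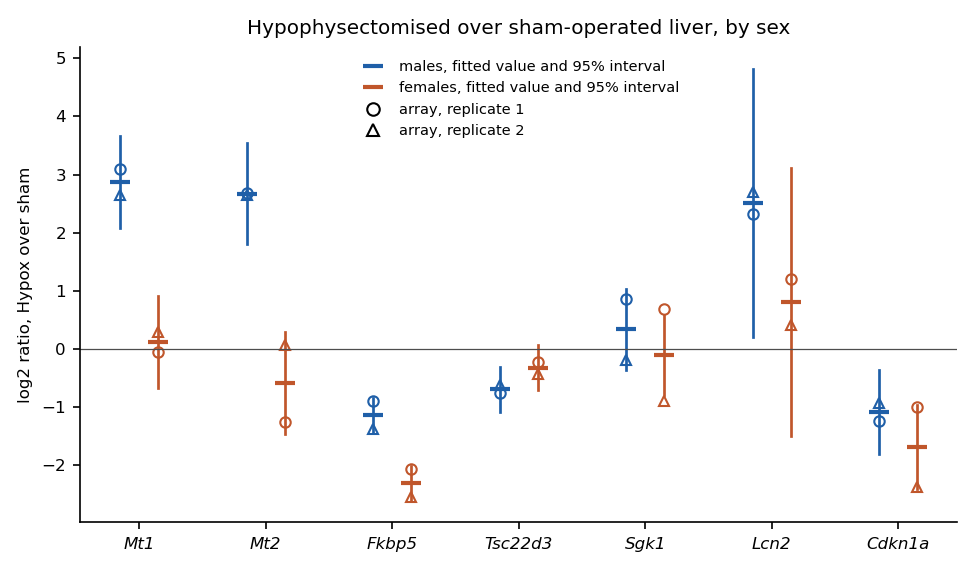
Log2 ratio of Hypox over sham liver (vertical axis) for each gene, males in blue and females in orange; open symbols are arrays, the bar is the fitted value and the line its 95% interval. Mt1 and Mt2 reach 2.87 and 2.67 in males, against 0.11 and -0.60 in females, and Fkbp5 lies lower in females (-2.32) than in males (-1.15).

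Markers of other cell types moved with these comparisons. Of 13 skeletal muscle genes tested, 2 were called higher in M-Sham than F-Sham and 8 lower in M-Hypox than M-Sham, with list medians of 2.71 and -2.83. Over all genes 5.03% were called higher in the first of these comparisons and 18.6% lower in the second. The summed log2 level of the muscle genes was 14.02 to 15.79 in the 4 M-Sham channels and 10.95 to 12.61 in F-Sham. Only 4 of the 13 were well above background in every channel, though none was below it in every channel. The part of muscle RNA in the members' ratios was not tested, and values on other arrays where it shifted are given here. In F-Hypox + 2 GH over F-Hypox 11 of 13 muscle genes were lower, with array medians of -3.31 and -3.01. Over all genes 4.03% were called lower there. On those arrays Mt1 read 0.40 and 0.02, Mt2 read 1.09 and 0.34, and Fkbp5 read 0.69 and 1.11. On replicate 1 of M-Hypox + GH (30) over M-Hypox the muscle median was 3.11, and Mt1 read -0.10, Mt2 -0.20 and Fkbp5 -0.06. On replicate 2 it was -0.05, and Mt1 read -0.73. In M-Hypox + GH (90) over M-Hypox it was 2.18 and 0.05, with Mt1 at 0.52 and 0.80. In M-Hypox + 2 GH over M-Hypox it was -0.01 and 2.95, with Mt1 at -1.46 and 0.30. In M-Hypox + GH (30) over F-Hypox + GH (30) it was 3.02 and -0.03, with Mt1 at 0.19 and -1.04. Of 10 lymphocyte genes 8 were called higher in M-Hypox than M-Sham and 4 in F-Hypox than F-Sham, against 18.8% and 14.6% of all genes. The summed level of the lymphocyte genes was 10.45 to 10.62 in M-Sham and 11.47 to 11.86 in M-Hypox, and its part in the members' ratios was not tested. In bulk RNA a change in the share of a cell type and a change of RNA per cell cannot be told apart.

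GH given 30 min before killing was followed by no called change in either sex. The limma count was 0 of 7 in males, against 1.78% of all genes called higher and 0.722% lower, and 0 had an unadjusted p under 0.05. It was 0 of 7 in females too, against 0.0115% higher and 0.00764% lower. There 2 genes, Mt1 and Mt2, had an unadjusted p under 0.05. Those shares are of genes called at an adjusted p, so the 2 cannot be set against them. In females Mt1 read 0.84 and 1.34 (fitted 1.09, SE 0.36, 2.13-fold) and Mt2 read 1.29 and 2.00 (fitted 1.65, SE 0.40, 3.13-fold), above 0 on every array. Their adjusted p-values were 0.48 and 0.27. The male arrays read -0.10 and -0.73 for Mt1 and -0.20 and -0.11 for Mt2, below 0 on every array.

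The male minus female difference at 30 min was -1.51 for Mt1 (95% interval -2.62 to -0.39, adjusted p = 0.29) and -1.80 for Mt2 (95% interval -3.04 to -0.56, adjusted p = 0.27). It was called for none of the 7 genes, with 2 at an unadjusted p under 0.05, and for 0.00764% of all genes. The brightest Fkbp5 probe lay close to 0 in both sexes, at -0.06 and -0.26 in males and 0.08 and -0.03 in females. Its other probes gave fitted values of -0.06 and 0.33 in males (SE 0.11 each), and 0.02 and 0.18 in females. Cdkn1a read -0.29 and -0.88 in males and -0.67 and -0.68 in females, below 0 on all 4 arrays but not called (adjusted p = 0.39 and 0.70). Lcn2 went opposite ways on the paired arrays, 1.78 against -1.55 in males and -0.95 against 2.29 in females.

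At 90 min Fkbp5 had risen and Tsc22d3 had fallen, in males and in females. The Fkbp5 arrays read 0.73 and 0.88 in males and 0.77 and 1.16 in females. Fitted values were 0.80 (SE 0.14, 1.75-fold, limma adjusted p = 0.0055) and 0.96 (SE 0.14, 1.95-fold, adjusted p = 0.0038). The other Fkbp5 probes gave 0.47 and 0.75 in males, and a smaller 0.30 and 0.42 in females. The Tsc22d3 arrays read -1.29 and -0.73 in males and -0.56 and -1.23 in females. Fitted values were -1.01 (SE 0.18, 2.01-fold lower, adjusted p = 0.0065) and -0.89 (SE 0.18, 1.85-fold lower, adjusted p = 0.02), and the other probe gave -0.95 and -0.68. So a pair of textbook glucocorticoid targets that both fell with hypophysectomy in males went opposite ways after GH.

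Counted over the 7 genes, 1 was higher and 1 lower at 90 min in each sex. The background was 3.4% higher and 1.58% lower in males, and 2.34% higher and 0.821% lower in females. Leaving out replicate 2 of the female comparison ended both female calls (adjusted p = 0.20 for Fkbp5 and 0.55 for Tsc22d3). Leaving out replicate 1 of the male comparison ended both male calls (adjusted p = 0.091 and 0.26), and leaving out replicate 2 ended that of Fkbp5 (adjusted p = 0.16). Scaling the arrays to a common spread enlarged the female values to 3.15 for Fkbp5 and -3.20 for Tsc22d3. No gene of the 7 differed between the sexes at 90 min (limma, 0 called and 0 at an unadjusted p under 0.05, with 0.00764% of all genes called), and the interval of the male minus female difference was -0.58 to 0.27 for Fkbp5 and -0.66 to 0.43 for Tsc22d3.

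The metallothioneins at 90 min were above 0 on all 8 array readings without being called. Mt1 read 0.52 and 0.80 in males and 0.70 and 0.44 in females, and Mt2 read 0.37 and 1.27 in males and 0.69 and 1.71 in females. The lowest adjusted p among these was 0.15, for Mt2 in females (SE 0.40, 2.29-fold). From 30 to 90 min in males the Fkbp5 ratio rose by 0.96 (SE 0.20, adjusted p = 0.028), the 1 gene of the 7 for which that difference was called, where 2.46% of all genes were; it was not called without any 1 of the 4 arrays involved (adjusted p from 0.061 to 0.17). In females the same difference for Fkbp5 was 0.94 (SE 0.20, adjusted p = 0.13), and 0 of 7 were called with 0.153% of all genes, 2 of 7 having an unadjusted p under 0.05. The other Fkbp5 probes gave smaller differences, 0.53 and 0.42 in males and 0.28 and 0.24 in females.

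After 2 GH injections Fkbp5 was higher in both sexes, in males by the largest amount seen for it after GH. The male arrays read 1.41 and 1.48 and the female arrays 0.69 and 1.11, with no overlap between the sexes. Fitted values were 1.45 (SE 0.14, 2.72-fold, limma adjusted p = 3e-05) and 0.90 (SE 0.14, 1.87-fold, adjusted p = 0.0031). The difference between the sexes, 0.54 with a 95% interval of 0.12 to 0.97, did not pass the test over all genes (adjusted p = 0.16). The other probes gave 1.18 and 1.07 in males, and 0.74 and 0.43 in females. In males the ratio exceeded that of the single injection at 30 min by 1.61 (SE 0.20, adjusted p = 0.00046), the 1 of 7 genes called for this difference with 14.6% of all genes. In females the excess was 0.88 (SE 0.20, adjusted p = 0.05 as rounded, just above the threshold), and 0 of 7 were called with 1.41% of all genes, 2 of 7 having an unadjusted p under 0.05. The other Fkbp5 probes gave a smaller excess, 1.24 and 0.74 in males and 0.72 and 0.25 in females.

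Tsc22d3 fell in males after 2 injections and was not called in females. It read -0.52 and -0.73 in males (fitted -0.63, SE 0.18, 1.55-fold lower, adjusted p = 0.026) and -0.62 and -0.40 in females (fitted -0.51, SE 0.18, adjusted p = 0.10). The male call was lost without either array (adjusted p = 0.13 and 0.29). Cdkn1a read 0.88 and 0.31 in males and 1.06 and 0.16 in females, above 0 on all 4 arrays and not called (adjusted p = 0.27 and 0.33). The male arrays disagreed for the metallothioneins, at -1.46 and 0.30 for Mt1 and -1.97 and 0.23 for Mt2. On those arrays the median of 6 pancreatic acinar genes was 0.41 and 3.78 and that of 13 muscle genes was -0.01 and 2.95; the part of either in the disagreement was not tested. Female Mt2 read 1.09 and 0.34, and female Mt1 0.40 and 0.02. On these female arrays the muscle median was -3.31 and -3.01, and its part in the female ratios was not tested.

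Over the 7 genes, 1 was higher and 1 lower in males after 2 injections, with 10.6% and 8.7% of all genes, and 1 was higher and none lower in females, with 4.4% and 4.03%. Without replicate 2 the female Fkbp5 call was lost (0.65, adjusted p = 0.17). The difference between the sexes was called for none of the 7 (2 at an unadjusted p under 0.05, Mt2 and Fkbp5) and for 1.97% of all genes. The male arrays of this comparison were on 1 slide and the female arrays on 2 others.

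**Figure D3:**
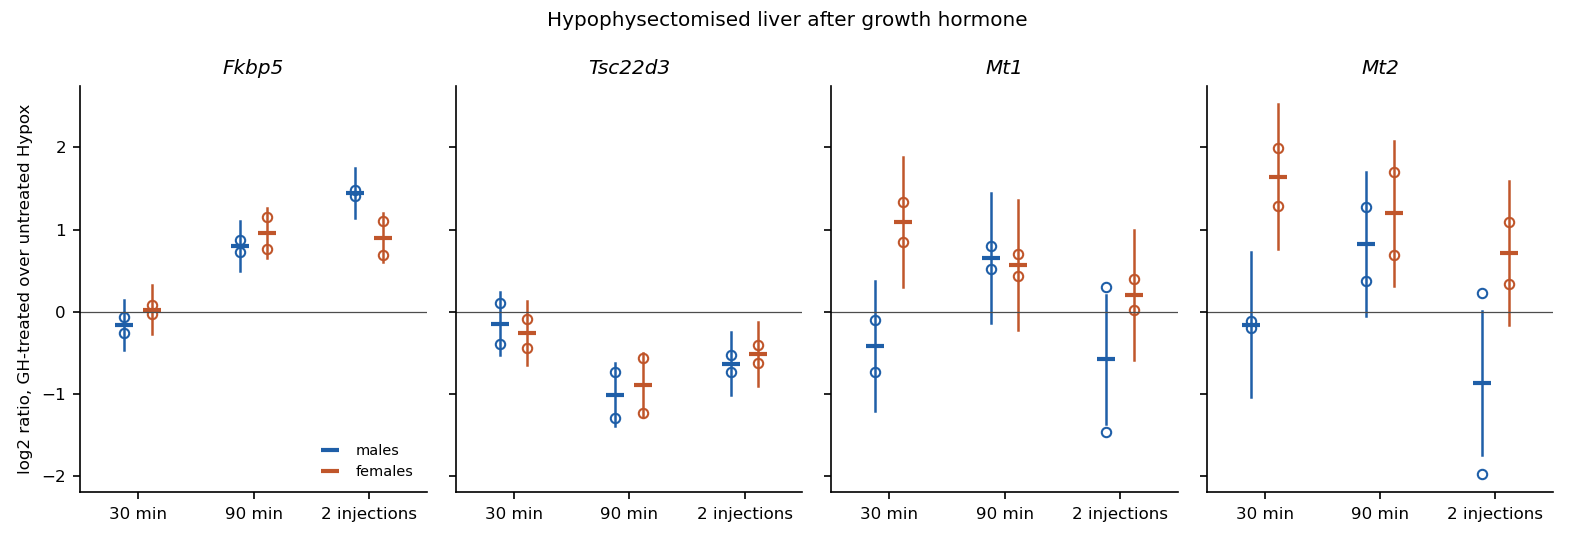
Log2 ratio of GH-treated over untreated Hypox liver (vertical axis) at 30 min, at 90 min and after 2 injections, males in blue and females in orange; circles are arrays, the bar is the fitted value and the line its 95% interval. Fkbp5 is near 0 at 30 min and between 0.80 and 1.45 later, Tsc22d3 is lowest at 90 min, and the metallothioneins have wide intervals.

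Males and females without a pituitary were also compared directly, and there the paired arrays disagreed on the metallothioneins. M-Hypox over F-Hypox gave 1.12 and -0.35 for Mt1 and 1.65 and -0.59 for Mt2, on both sides of 0. Fkbp5 read 0.20 and 0.37 (fitted 0.28, SE 0.14, adjusted p = 0.36), above 0 on both arrays. None of the 7 was called by limma (0 at an unadjusted p under 0.05), against 0.867% of all genes higher and 0.764% lower. At 30 min after GH the male over female comparison also called none of the 7 (0 at an unadjusted p under 0.05), against 0.275% higher and 0.229% lower. There Lcn2 read 2.54 and -3.21, the widest gap between paired arrays among the 7 genes in any comparison, and Mt1 read 0.19 and -1.04.

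The comparisons close a loop, so each of the male over female Hypox values can also be summed from 3 others. The measured and summed values of M-Hypox over F-Hypox were 0.38 and 0.19 for Mt1, 0.53 and 0.37 for Mt2, and 0.28 and 0.18 for Fkbp5. Each of these gaps was smaller than its error (SE 0.73, 0.81 and 0.28). At 30 min the measured and summed values were -0.42 and -1.12 for Mt1 and -0.35 and -1.27 for Mt2; the gap for Mt2, 0.92, exceeded its SE of 0.81.

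Single-channel levels place every group on 1 scale for each gene, with 2 to 10 channels a group that may share pools. Groups were ordered by their own means. How often neighbouring groups do not overlap over all genes was not counted, so such gaps have no background. M-Sham was the lowest of the 10 groups for both metallothioneins: Mt1 lay at 13.59 ± 0.10 (SD, n = 4 channels), against 15.54 ± 1.12 (n = 2) in M-Hypox + 2 GH, the next lowest, and 16.82 ± 0.35 (n = 2) in F-Hypox + GH (90), the highest. For Mt1 the gap above M-Sham was the only place in the order where neighbouring groups did not overlap. Untreated M-Hypox ran from 15.80 over a median of 16.21 to 16.80 in 10 channels, F-Hypox from 15.25 over 15.99 to 16.39 in 10, and F-Sham from 15.76 to 16.22 in 4. Mt2 had the same group at each end, 14.70 ± 0.36 (n = 4) in M-Sham and 17.58 ± 0.17 (n = 2) in F-Hypox + GH (90). Its F-Hypox channels spread from 15.15 to 17.11, more than any other group with 4 or more channels.

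Fkbp5 had its highest level in F-Sham, 11.55 ± 0.24 (n = 4), followed by M-Hypox + 2 GH at 10.84 ± 0.06 (n = 2), M-Sham at 10.53 ± 0.28 (n = 4) and M-Hypox + GH (90) at 10.01 ± 0.11 (n = 2); no neighbours among these overlapped. F-Hypox + GH (90) at 9.86 ± 0.69 (n = 2) and F-Hypox + 2 GH at 9.76 ± 0.32 (n = 2) came next and overlapped with each other. The 4 groups without a pituitary and without GH beyond 30 min closed the order and overlapped as neighbours: M-Hypox 9.28 ± 0.11 (n = 10), M-Hypox + GH (30) 9.16 ± 0.17 (n = 4), F-Hypox + GH (30) 9.09 ± 0.07 (n = 4) and F-Hypox 9.00 ± 0.21 (n = 10). After 2 injections the male channels, 10.79 and 10.88, were above all 4 channels of M-Sham, which reached 10.78. The female channels, 9.53 and 9.98, stayed below those of F-Sham, which began at 11.28.

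Tsc22d3 was highest in F-Sham (13.87 ± 0.21, n = 4) and M-Sham (13.81 ± 0.13, n = 4) and lowest in M-Hypox + GH (90) (12.24 ± 0.47, n = 2); neighbouring groups overlapped except F-Hypox + 2 GH (12.91 ± 0.19, n = 2) over M-Hypox + 2 GH (12.67 ± 0.04, n = 2). Cdkn1a was highest in F-Sham (11.70 ± 0.13, n = 4) and then M-Sham (11.06 ± 0.39, n = 4), both apart from their neighbours, while the 8 Hypox groups had means of 9.14 to 9.78 and overlapped in order. Sgk1 had the narrowest range of group means, 1.27, from 13.12 ± 0.20 (n = 2) in M-Hypox + GH (90) to 14.38 ± 0.29 (n = 4) in F-Hypox + GH (30). Lcn2 had the widest, 4.72, from 9.01 ± 0.27 (n = 4) in M-Sham to 13.73 ± 0.25 (n = 2) in F-Hypox + GH (90). Levels mix arrays scanned apart, and where they and the paired ratios differ the ratios are the direct measurement. M-Hypox + 2 GH had the lowest Cdkn1a level, 9.14 ± 0.55 (n = 2), though it exceeded M-Hypox on both shared arrays. F-Hypox + GH (30) lay above F-Hypox in Cdkn1a level, 9.78 against 9.66, though their shared arrays read -0.67 and -0.68.

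**Figure D4:**
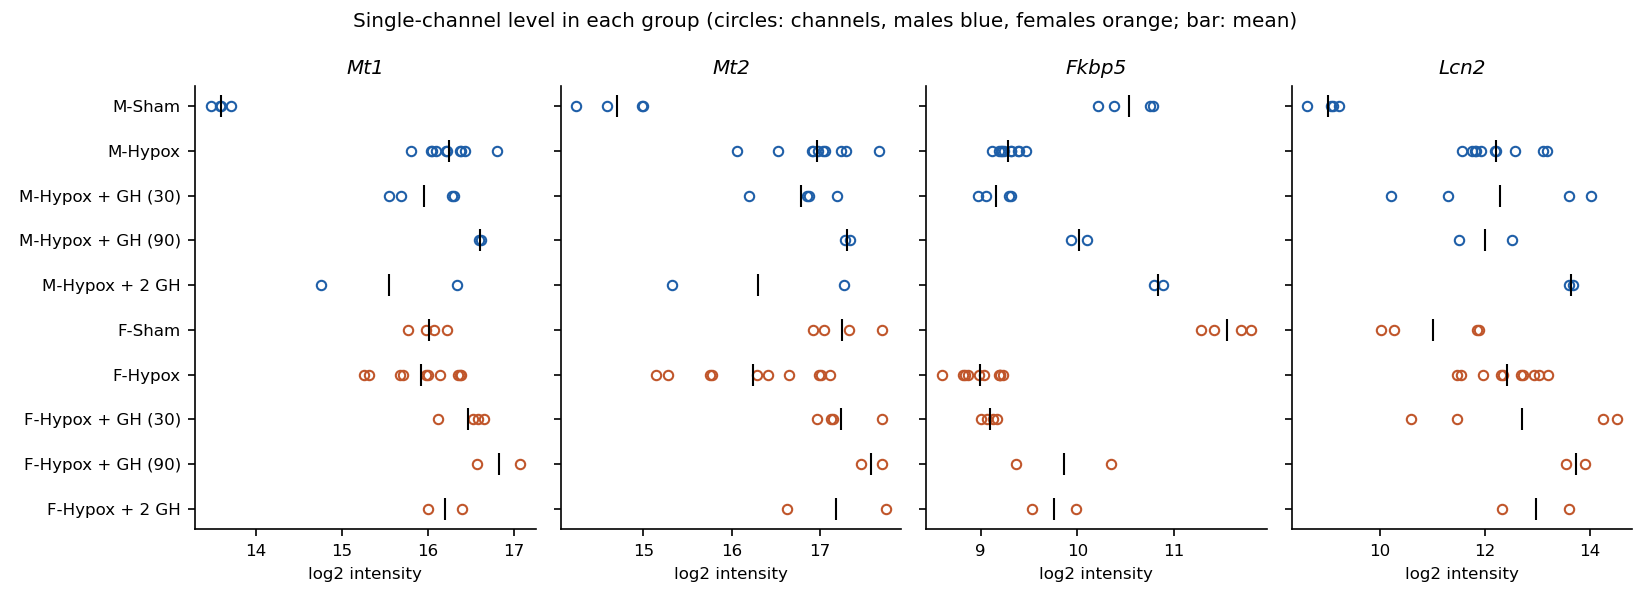
Single-channel log2 intensity (horizontal axis) of Mt1, Mt2, Fkbp5 and Lcn2 in the 10 groups (rows), each gene on an axis of its own; circles are channels and the bar is their mean. M-Sham is the lowest group for Mt1, Mt2 and Lcn2, and Fkbp5 is highest in F-Sham and lowest in F-Hypox.

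The Lcn2 arrays were set beside the acute-phase list, the liver proteins that rise with inflammation, because lipocalin-2 is one such protein. Across the 22 arrays, which may share pools, Lcn2 had the sign of the median of 23 acute-phase genes on 17. On the arrays of M-Hypox + GH (30) over F-Hypox + GH (30) the list medians were 0.68 and -1.01, beside Lcn2 ratios of 2.54 and -3.21. On those of F-Hypox + GH (30) over F-Hypox they were -0.41 and 0.87, beside -0.95 and 2.29. On those of F-Hypox + 2 GH over F-Hypox, where the Lcn2 arrays also disagreed (0.67 and -0.70), the list medians were -0.07 and -0.30 and did not turn. Neutrophils also carry lipocalin-2, and the median of 10 neutrophil genes had its sign on 18 arrays. The summed level of the neutrophil genes was 11.26 to 11.55 in the 4 M-Sham channels against 11.81 to 13.47 in M-Hypox. In females the ranges overlapped, 11.31 to 13.14 in F-Sham and 11.53 to 13.99 in F-Hypox. The median of the Kupffer cell and macrophage genes had the sign of Lcn2 on 15 arrays, that of skeletal muscle on 12 and that of pancreatic acinar genes on 7. Of the 12 neutrophil genes on the array only 4 were well above background in every channel, and 1 was in none. The neutrophil median thus rests partly on dim genes. The part of neutrophil RNA or of the acute-phase list in the Lcn2 ratios was not tested.

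**Figure D5:**
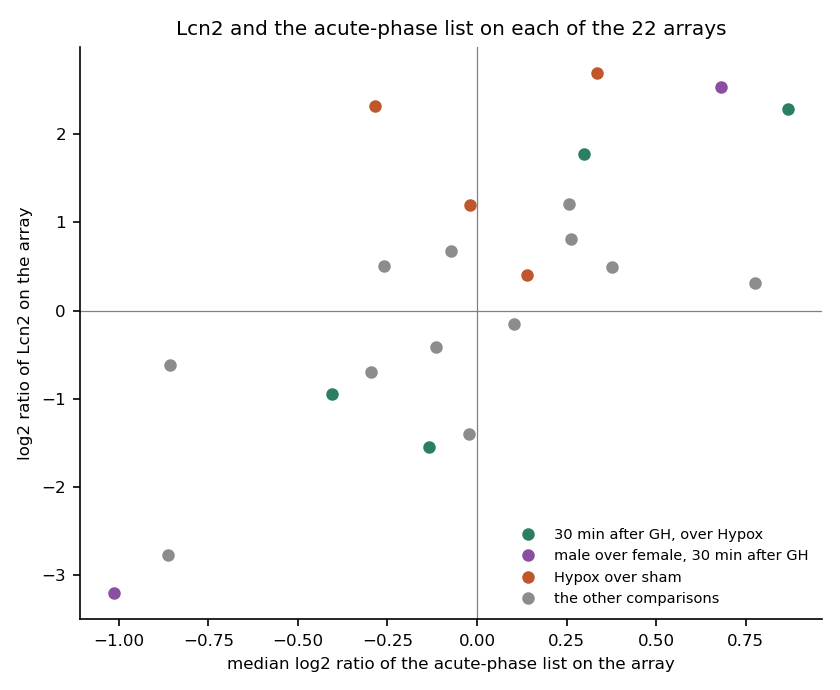
Log2 ratio of Lcn2 (vertical axis) against the median log2 ratio of the 23 acute-phase genes (horizontal axis), 1 point per array, coloured by kind of comparison. The male over female arrays at 30 min after GH lie in opposite corners, with Lcn2 at -3.21 on one and 2.54 on the other.

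The genes whose ratios were most like each member over the 22 arrays, among 13767 others with a symbol, describe the same groupings, with no p since arrays share groups and may share pools. Mt1 and Mt2 were each other's nearest gene (Pearson r = 0.94), followed by Fbxl5 (0.904) and Acap1 (0.889) for Mt1 and Cyp2g1 (0.903) and Fbxl5 (0.865) for Mt2. Nearest to Fkbp5 were Nceh1 (0.966), Rapgef4 (0.966) and Ect2 (0.943). Lcn2 was nearest to the acute-phase genes Saa2 (0.874) and Saa3 (0.873) and to Il7 (0.873). Cdkn1a was nearest to Exosc9 (0.899), Med8 (0.893) and Elovl1 (0.89). Tsc22d3 had weaker likeness, to Atg4a (0.757), Cutal (0.746) and Dynll2 (0.729), as had Sgk1, to Ccnl1 (0.709), Btg2 (0.676) and Gadd45a (0.675). Among the members themselves r was 0.82 between Fkbp5 and Cdkn1a, -0.03 between Fkbp5 and Mt1 and -0.39 between Fkbp5 and Tsc22d3, so the textbook group did not vary as 1 unit across these arrays.

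More of the other glucocorticoid targets were called lower than higher after hypophysectomy. Of 31 tested, 11 were called lower and 1 higher in males, and 10 lower and 1 higher in females; the list medians were -0.02 and -0.26, and those of all genes 0.0061 and -0.0035. Over all genes 18.6% were called lower and 18.8% higher in males, and 16.5% and 14.6% in females. Angptl4, an inhibitor of lipoprotein lipase, fell by 3.08 in males (SE 0.29, adjusted p = 4.6e-06) and 2.40 in females (SE 0.29, adjusted p = 6.4e-05). Lpin1, a phosphatidate phosphatase, fell by 2.97 (SE 0.20) and 3.39 (SE 0.20), with adjusted p of 2.9e-07 and 2.1e-07. Errfi1, a feedback inhibitor of EGF receptor signalling, fell by 2.54 in males (SE 0.32), and the transcription factor Klf9 fell by 1.82 in females (SE 0.18, adjusted p = 1.4e-05). Fkbp5 and Tsc22d3 in males thus fell beside most of the called genes of this list, while the metallothioneins rose.

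After GH fewer of the 31 were called. None was at 30 min in either sex (limma, 1 at an unadjusted p under 0.05 in each). Over all genes 1.78% were higher and 0.722% lower there in males, and 0.0115% and 0.00764% in females. At 90 min 4 of the list were higher and 1 lower in males, with 3.4% and 1.58% of all genes. In females at that time 1 was higher and none lower, with 2.34% and 0.821%. The male calls held G6pc, the last enzyme of glucose release, which fell by 2.24 (SE 0.41, adjusted p = 0.0074), and Lpin1, which rose by 0.81 (SE 0.20, adjusted p = 0.036). The female call was the phosphatase gene Dusp1, at 1.32 (SE 0.31, adjusted p = 0.04). After 2 injections Tgm2, a transglutaminase, rose in both sexes, by 1.65 in males (SE 0.26, adjusted p = 0.00067) and 1.35 in females (SE 0.26, adjusted p = 0.009), among 2 higher and 1 lower of 31 in males and 1 and 1 in females. The shares of all genes were 10.6% higher and 8.7% lower in males, and 4.4% and 4.03% in females.

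Genes that carry or handle the hormone were called in both directions. Of 12 tested, 3 were called higher and 5 lower in M-Hypox than in M-Sham (median -0.18), and 1 higher and 5 lower in F-Hypox than in F-Sham (median -0.09), where 18.8% of all genes were higher and 18.6% lower in males and 14.6% and 16.5% in females. Serpina6, which encodes corticosteroid-binding globulin, rose by 2.88 in males (SE 0.13, adjusted p = 8.7e-09) and 1.18 in females (SE 0.13, adjusted p = 3.5e-05), and was lower in M-Sham than in F-Sham by 1.54 (SE 0.13). The receptor chaperone Hsp90aa1 fell by 2.86 in males (SE 0.18) and 1.32 in females (SE 0.18), and the co-chaperone Fkbp4 fell by 1.22 (SE 0.12) and 0.74 (SE 0.12). After 2 injections in males, Hsp90aa1 rose by 0.85 (SE 0.18, adjusted p = 0.0043) and Serpina6 fell by 0.67 (SE 0.13, adjusted p = 0.0029), each opposite to its ratio after hypophysectomy.

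The other genes of metal handling were called in both directions. Of 15 tested, 3 were higher and 1 lower in M-Sham than F-Sham (median -0.05), 2 higher and 4 lower in M-Hypox than M-Sham (median -0.08), and none higher and 6 lower in F-Hypox than F-Sham (median -0.07). The shares over all genes were 5.03% higher and 3.74% lower, 18.8% and 18.6%, and 14.6% and 16.5% in the same order, and the list was not tested against the metallothioneins. Slc39a4, a zinc importer, was higher in M-Sham than F-Sham by 0.59 (SE 0.08, adjusted p = 0.00047) and fell by 0.89 in M-Hypox (SE 0.08, adjusted p = 4.7e-06), the reverse of Mt1 and Mt2 in both. Gclm, a subunit of the enzyme that starts glutathione synthesis, fell by 0.84 in males (SE 0.07) and 0.75 in females (SE 0.07). The zinc exporter Slc30a1 rose by 0.64 at 90 min in females (SE 0.10, adjusted p = 0.0064), the zinc importer Slc39a14 rose by 0.46 at 90 min in males (SE 0.11, adjusted p = 0.037), and Mtf1, the metal-sensing factor itself, rose after 2 injections by 0.79 in males (SE 0.11, adjusted p = 0.00029) and 0.39 in females (SE 0.11, adjusted p = 0.045).

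Targets of p53 were counted because Cdkn1a is also one of them. Of 15 tested, 6 were higher and 1 lower in M-Hypox than M-Sham (median 0.40), and 5 higher and 1 lower in F-Hypox than F-Sham (median 0.31). Over all genes 18.8% were higher and 18.6% lower in males, and 14.6% and 16.5% in females. Cdkn1a fell in both sexes. Trp53inp1 rose by 1.85 in males (SE 0.22, adjusted p = 3.8e-05) and 1.28 in females (SE 0.22, adjusted p = 0.00096). Acute-phase genes were called in both directions, 4 higher and 2 lower of 23 in males and 3 and 2 in females. Hamp2, a hepcidin gene, followed the metallothioneins in the sham and male Hypox comparisons, at -3.00 (SE 0.36, adjusted p = 0.00013) in M-Sham over F-Sham and 3.41 (SE 0.36, adjusted p = 1.2e-05) in M-Hypox over M-Sham, and unlike them it also rose in females, by 1.76 (SE 0.36, adjusted p = 0.0025).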

How the data were processed

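Liver RNA pools were hybridised in pairs to 2-colour Agilent arrays, 22 in all. The deposited scanner files hold spot and background intensity and a log10 ratio of red over green; per the file headers they were made with Feature Extraction 9.5.1.1 and 9.5.3.1. The authors' deposited value table holds log2 ratios that equal a scanner file's ratio within 0.005 in 22 of 22 columns, 6 under the same replicate's label and 16 under the other replicate's. It was not used in the tests.

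Of 45018 spots, 1639 control spots were left out, and outlier flags, which marked 97 to 159 spots an array, were too. Intensities were corrected with normexp (offset 50) and loess in limma 3.58.1 (R 4.3.3), and the log2 ratios were turned by the labelled dyes to first-named over second-named group. The design text names M-Hypox as the reference of F-Hypox + 2 GH where the labels name F-Hypox; the labels were followed. Single-channel levels were taken after Aquantile scaling. Median intensity was 294 to 376 in green and 415 to 522 in red, and 57.1% to 77.7% of red and 69.3% to 75.6% of green spots were well above background, which with 2 arrays a comparison limits precision.

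The fit used all 22 arrays, with 1 coefficient per comparison and a dye term (10 residual degrees of freedom), and Benjamini-Hochberg adjustment over all genes tested. For a difference between comparisons, called means an adjusted p under 0.05. The fit was also run on simulated data with 200 changed genes, and that run is not used here to judge the calls. The brightest probe stood for a gene. Named are all members, up to 3 called genes of largest size per other list and comparison, and the 3 genes most like each member. The members and lists were chosen with earlier results of these data known. Lists of hepatocyte, Kupffer cell, cholangiocyte, stellate cell, endothelial and erythroid markers were also counted: in M-Hypox over M-Sham their medians were 0.04, 0.27, 0.15, 0.19, 0.16 and -0.53. Alternatives were other background, scaling, filter, probe, model and block choices and leaving out each array.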

Additional observations from a re-analysis of the deposited data

Results flagged for a closer look

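For 3 genes the ratio of hypophysectomised over sham-operated liver differed between the sexes by limma's test of the difference itself. The male minus female difference was 2.75 for Mt1, 3.27 for Mt2 and 1.17 for Fkbp5, on the log2 scale, with adjusted p-values of 0.0075, 0.0051 and 0.004. The male value was higher than the female one on each of the 2 arrays of either sex for these genes. None of 42 groups of channels with 4 to 10 values held one far enough from the others to stand apart. For independent values chance alone would mark about 1 in 20, but these channels may share pools. The test looks for a single value apart, so it does not show that channels of a group were alike. Lcn2 in F-Hypox + GH (30) ran from 10.59 to 14.51 without being marked.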

How the results depend on the processing

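Of the 22 calls, every one was kept with the scanner's log ratio, the smaller normexp offset, the loop model, no dye term, no filter on dim probes, both channels above background, the mean of probes, the replicate block and the slide as a random block (consensus correlation -0.0518). Scale normalization between arrays kept 4, only the arrays compared kept 14, and leaving out the sham arrays kept 7 of 9. Leaving out 1 array kept 32 of 54 tests of these calls. No called value changed sign, and the causes were not tested. With the replicate block the counts of members called were the same in every result, for example 5 in M-Hypox over M-Sham and 3 for Hypox over Sham, M minus F. Over 55 pairs of comparisons, deviations of same-numbered arrays correlated from -0.359 to 0.871 (median -0.00128, 20 pairs over 0.1). Pairing was therefore not assumed for the series, though a number may mark a reused pool in some comparisons: replicates 1 and 2 of M-Hypox + GH (30) gave Lcn2 ratios of 1.78 and -1.55 over M-Hypox and 2.54 and -3.21 over F-Hypox + GH (30). Scan day as a random block was not run, since it could not be fitted with each comparison scanned within 1 day. With 2 arrays a comparison, precision rests on the spread pooled over comparisons; a single array left in a comparison is assumed to vary like the others. With the mean of all probes of a gene, the number of members called became 1 for 2 GH over Hypox, M minus F and 1 for F-Hypox, 2 GH minus GH (30). With the mean of all probes of a gene, the sign turned for Fkbp5 in GH (90) over Hypox, M minus F (0.11) and Fkbp5 in M-Hypox + GH (30) over M-Hypox (0.0363). With scale normalization between arrays, the number of members called became 0 for F-Hypox + 2 GH over F-Hypox, 4 for F-Hypox + GH (90) over F-Hypox, 0 for F-Hypox over F-Sham, 0 for Hypox over Sham, M minus F, 0 for M-Hypox + 2 GH over M-Hypox, 0 for M-Hypox + GH (90) over M-Hypox, 1 for M-Hypox over M-Sham, 0 for M-Hypox, 2 GH minus GH (30), 0 for M-Hypox, GH (90) minus GH (30) and 1 for M-Sham over F-Sham. With scale normalization between arrays, the sign turned for Lcn2 in F-Hypox + 2 GH over F-Hypox (0.0045), Mt1 in F-Hypox, GH (90) minus GH (30) (0.13), Mt2 in F-Hypox, GH (90) minus GH (30) (2.49), Mt1 in GH (90) over Hypox, M minus F (-0.75), Tsc22d3 in GH (90) over Hypox, M minus F (2.20) and Cdkn1a in M-Hypox over F-Hypox (0.0078). With only the arrays compared in the fit, the number of members called became 2 for F-Hypox + 2 GH over F-Hypox, 2 for F-Hypox + GH (30) over F-Hypox, 0 for F-Hypox + GH (90) over F-Hypox, 1 for Hypox over Sham, M minus F, 1 for M-Hypox + 2 GH over M-Hypox, 1 for M-Hypox + GH (90) over M-Hypox, 0 for M-Hypox, 2 GH minus GH (30) and 0 for M-Hypox, GH (90) minus GH (30). Without the arrays of sham pools, the number of members called became 1 for F-Hypox + GH (90) over F-Hypox, 1 for F-Hypox, 2 GH minus GH (30) and 1 for M-Hypox + 2 GH over M-Hypox. In the loop model, the number of members called became 1 for F-Hypox, 2 GH minus GH (30), 1 for F-Hypox, GH (90) minus GH (30) and 2 for M-Hypox, 2 GH minus GH (30). In the loop model, the sign turned for Cdkn1a in GH (30) over Hypox, M minus F (-0.12), Mt2 in M-Hypox + GH (30) over M-Hypox (0.10) and Tsc22d3 in M-Sham over F-Sham (0.0126). Requiring both channels above background, the number of members called became 1 for F-Hypox, 2 GH minus GH (30). With the scanner's log ratio, the sign turned for Cdkn1a in M-Hypox over F-Hypox (0.0041). With a normexp offset of 10, the sign turned for Cdkn1a in M-Hypox over F-Hypox (0.0059) and Tsc22d3 in M-Sham over F-Sham (0.0025). Leaving out 1 array, the number of members called ran from 0 to 1 for F-Hypox + 2 GH over F-Hypox, from 0 to 2 for F-Hypox + GH (90) over F-Hypox, from 1 to 2 for F-Hypox over F-Sham, from 0 to 3 for Hypox over Sham, M minus F, from 1 to 1 for M-Hypox + 2 GH over M-Hypox, from 0 to 1 for M-Hypox + GH (90) over M-Hypox, from 3 to 3 for M-Hypox over M-Sham and from 0 to 0 for M-Hypox, GH (90) minus GH (30). For 2 GH over Hypox, M minus F, leaving out 1 array moved Cdkn1a from -0.42 to 0.39, Tsc22d3 from -0.25 to 0.0105, Sgk1 from -0.0094 to 0.33 and Lcn2 from -0.54 to 1.57. For F-Hypox + 2 GH over F-Hypox, leaving out 1 array moved Mt1 from -0.20 to 0.62, Mt2 from -0.20 to 1.63 and Lcn2 from -1.07 to 1.04. For F-Hypox + GH (30) over F-Hypox, leaving out 1 array moved Fkbp5 from -0.0124 to 0.0654, Sgk1 from -0.47 to 0.57 and Lcn2 from -0.81 to 2.15. For F-Hypox + GH (90) over F-Hypox, leaving out 1 array moved Cdkn1a from -0.02 to 0.56. For F-Hypox over F-Sham, leaving out 1 array moved Sgk1 from -0.87 to 0.66. For F-Hypox, 2 GH minus GH (30), leaving out 1 array moved Lcn2 from -2.17 to 0.80 and Sgk1 from -0.83 to 0.21. For F-Hypox, GH (90) minus GH (30), leaving out 1 array moved Lcn2 from -1.14 to 1.83 and Sgk1 from -0.35 to 0.69. For GH (30) over Hypox, M minus F, leaving out 1 array moved Sgk1 from -0.78 to 0.26, Cdkn1a from -0.14 to 0.33, Tsc22d3 from -0.16 to 0.39 and Lcn2 from -2.69 to 1.58. For GH (90) over Hypox, M minus F, leaving out 1 array moved Tsc22d3 from -0.48 to 0.25, Mt1 from -0.25 to 0.43 and Fkbp5 from -0.39 to 0.0793. For Hypox over Sham, M minus F, leaving out 1 array moved Sgk1 from -0.33 to 1.21 and Cdkn1a from -0.0587 to 1.27. For M-Hypox + 2 GH over M-Hypox, leaving out 1 array moved Mt1 from -1.34 to 0.19 and Sgk1 from -0.21 to 0.0089. For M-Hypox + GH (30) over F-Hypox + GH (30), leaving out 1 array moved Mt1 from -0.90 to 0.0509, Lcn2 from -3.19 to 2.53 and Cdkn1a from -0.78 to 0.16. For M-Hypox + GH (30) over M-Hypox, leaving out 1 array moved Tsc22d3 from -0.42 to 0.13, Sgk1 from -0.48 to 0.0573, Lcn2 from -2.02 to 2.25, Mt1 from -0.96 to 0.13 and Mt2 from -0.61 to 0.30. For M-Hypox + GH (90) over M-Hypox, leaving out 1 array moved Lcn2 from -0.15 to 0.043. For M-Hypox over F-Hypox, leaving out 1 array moved Mt1 from -0.22 to 0.99, Mt2 from -0.20 to 1.26 and Cdkn1a from -0.44 to 0.43. For M-Hypox over M-Sham, leaving out 1 array moved Sgk1 from -0.14 to 0.80. For M-Hypox, 2 GH minus GH (30), leaving out 1 array moved Mt1 from -0.93 to 0.61, Sgk1 from -0.16 to 0.38 and Lcn2 from -1.75 to 2.52. For M-Hypox, GH (90) minus GH (30), leaving out 1 array moved Cdkn1a from -0.0104 to 0.55 and Lcn2 from -2.30 to 1.96. For M-Sham over F-Sham, leaving out 1 array moved Tsc22d3 from -0.0548 to 0.0502.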
